A study of Danio rerio with 10 samples.

Results

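In whole zebrafish embryos, 43 of the more abundant genes differed in level between wild-type embryos and embryos mutant for uts2r3, and they are described here one library at a time. They were taken from a deposited table of 36351 genes by a rule on CPM, the usual count unit that divides the count of a gene by the total of its library and scales every library to the same total. A gene was a member if its mean over all libraries was at least 100 CPM, if the means of the genotypes differed by at least 1.3-fold, and if no library of one genotype overlapped the other. Identifiers LL0000017600 to LL0000017800 were left out, and none of these genes reached 100 CPM. Of 1682 genes at or above that level, 26 (1.55%) were higher in the mutants and 17 (1.01%) were lower. Because the rule read the levels in both genotypes, the differences between genotypes below are descriptions. Changes and calls from an edgeR fit are given for some members, but they are not independent of the rule.

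Uts2r3 is a receptor for urotensin-related peptides. In zebrafish these peptides are made by neurons of the spinal cord that touch the cerebrospinal fluid, downstream of the Reissner fiber, a thread of secreted protein in the brain ventricles and central canal. The receptor is expressed in dorsal muscle, and fish that lack parts of this pathway develop a curved body axis. Genes counted at high levels in a whole embryo usually include those for ribosomal proteins, translation factors, blood globins and the contractile apparatus of muscle, but none of the members could be assigned to such a group here.

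Total RNA from whole bodies was sequenced at 28 hours post-fertilization, from 4 libraries labelled wild type and 6 labelled uts2r3, described in the series as homozygous mutants. The labels gave neither the allele nor the strain, nor the number of embryos or clutches behind a library, so the spread between libraries may be technical. The extraction note gave 5 controls and 5 mutants, where the sample labels gave 4 and 6. The libraries were grouped by the sample labels. No identifier of the table matched a gene name in the tables used here. The level of uts2r3, the identity of the members and markers of muscle, blood or other tissues were therefore not analysed here. In whole embryos, fewer cells of a type and less RNA per cell cannot be told apart.

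Wild-type libraries held 62001742 to 73442336 counts over genes and mutant libraries 31247787 to 42423874. Within the mutants, replicates 5 and 6 had the fewest counts (31510868 and 31247787) and replicate 3 the most. Within wild type, replicate 4 had the most. Depth, and the separate series of column names carried by the genotypes, cannot be told apart from genotype. The lowest count of any member in any library was 1822. Libraries of the same genotype differed in how level related to gene length. Long genes were lowest relative to short ones in mutant replicates 5 and 6 among the mutants, and in replicate 4 among wild type. Among the 1639 abundant genes that were not members, the median of the genes in the longest 20% minus that in the shortest 20% was -0.34 and -0.26 (log2 CPM relative to the mean of all libraries) in mutant replicates 5 and 6. It was -0.24 in wild-type replicate 4. Mutant replicate 3, at -0.12, lay between mutant replicates 5 and 6 and the other mutant libraries. In the other libraries it lay between 0.10 and 0.24. Whether depth within a genotype bears on this trend was not tested.

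The members were 2.56% of the 1682 abundant genes. The groups did not overlap at 225 of the abundant genes, or 13.4%, with 166 of these (9.87%) higher and 59 (3.51%) lower in the mutants. At 182 of the 225 the means differed by less than 1.3-fold. A further 37 abundant genes differed by 1.3-fold or more but had overlapping groups, 17 of them higher and 20 lower in the mutants. The balance of directions depended on the scaling of the libraries. With TMM-scaled library sizes (a scaling that trims extreme genes) the rule gave 19 higher and 22 lower genes, and with RLE size factors 22 higher and 20 lower. The number of lower genes also changed with the libraries used. It was 34 without wild-type replicate 4, and 14 to 25 when any other library was left out. With 1 library fewer the limit on overlap can only loosen, so some rise is built in.

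**Figure D1:**
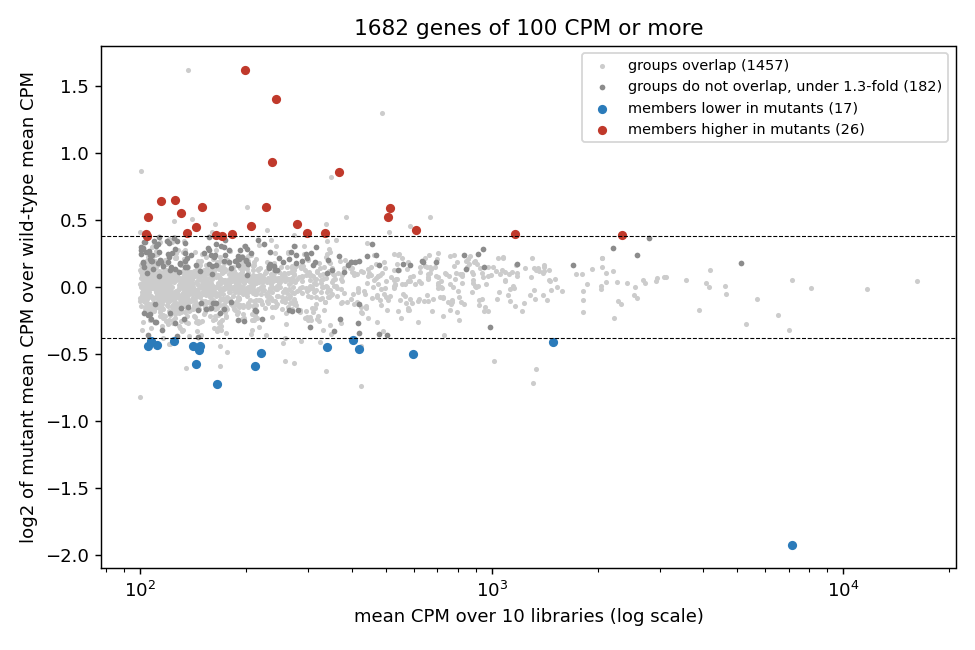
Each point is 1 of 1682 genes of 100 CPM or more, with its mean CPM over 10 libraries (x, log scale) and the log2 ratio of the mutant to the wild-type mean CPM (y). Dashed lines mark 1.3-fold. The 26 higher members (red) and 17 lower members (blue) lie just past the lines for the most part, and 1 lower member at 7130 CPM lies far below.

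Most members lay close to the 1.3-fold limit. The higher members differed by 1.304-fold to 3.08-fold with a median of 1.38-fold, and the lower members by 1.32-fold to 3.79-fold with a median of 1.36-fold. A difference of 1.5-fold or more was present in 9 higher and 3 lower members, and one of 2-fold or more in 3 members in all. Just inside the limit, the 3 nearest higher members were at 1.304-fold, 1.305-fold and 1.308-fold, and the 3 nearest lower members at 1.316-fold, 1.321-fold and 1.325-fold. Just outside it, non-overlapping higher genes were at 1.297-fold, 1.297-fold and 1.291-fold and lower genes at 1.293-fold, 1.290-fold and 1.282-fold. One of the genes just outside was among the most abundant of all, at rank 22. Its mean was 2389 ± 219 CPM over the wild-type libraries (SD, n = 4) and 3085 ± 128 CPM over the mutant ones (SD, n = 6).

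Together the members held 2.59% ± 0.210 of all counts (SD, n = 4) in wild-type libraries, against 1.80% ± 0.0425 (SD, n = 6) in mutant ones. The 26 higher members held 0.729% ± 0.0153 in wild type and 1.04% ± 0.0586 in the mutants, a gain of 0.312% of all counts. With TMM-scaled library sizes, under which 19 genes met the rule as higher, the gain was 0.204%. The 17 lower members held 1.86% ± 0.198 in wild type and 0.762% ± 0.0547 in the mutants, and the difference, mutant minus wild type, was -1.098% of all counts. The loss was therefore larger than the gain although fewer genes carried it. A single gene accounted for 85.5% of the loss, and without it the other 16 lower members went from 0.584% ± 0.0304 to 0.425% ± 0.0409 of all counts, a difference of -0.159%.

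The gains were spread over more genes. The leading higher member carried 19.5% of the gain, the first 5 carried 48.8% and the first 10 carried 73.3%. Set against all genes, the absolute differences between the genotype means summed over the 43 members were 13.4% of the same sum over the whole table. The leading lower member alone gave 8.95%. Each such sum also contains the spread between libraries. Since CPM add up to a fixed total, the net loss of the members stands against a net gain of 0.578% of all counts in the other 1639 abundant genes and of 0.208% in the 34669 genes outside the abundant set.

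**Figure D2:**
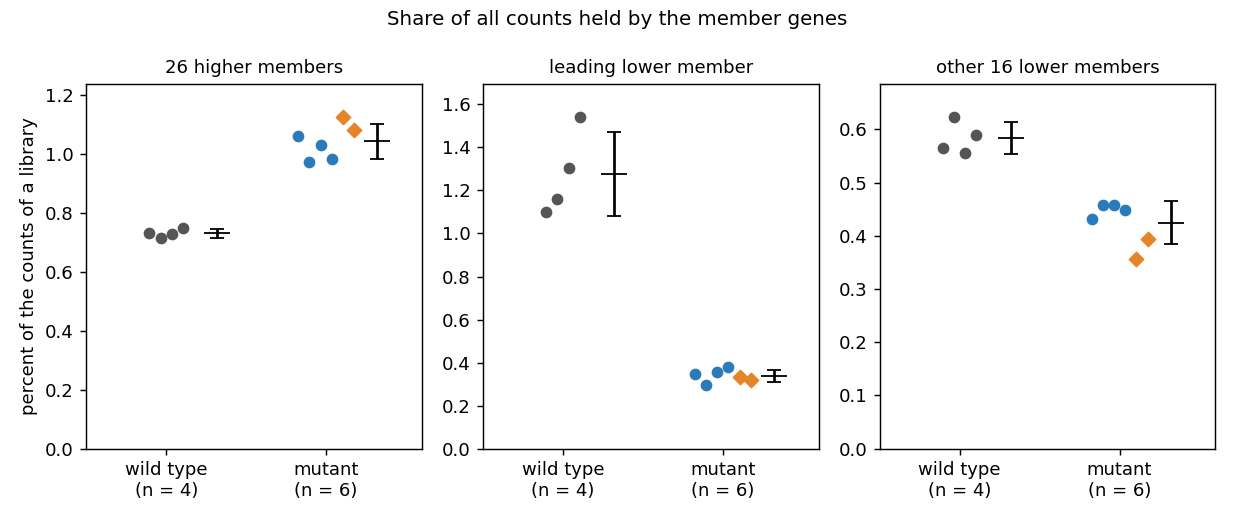
Percent of the counts of each library (y) held by the 26 higher members, the leading lower member and the other 16 lower members, in wild type (grey, n = 4) and mutants (blue for replicates 1 to 4, orange diamonds for replicates 5 and 6). Black bars give the mean ± SD. The leading lower member is at 1.28% in wild type and 0.337% in the mutants, and mutant replicates 5 and 6 are the highest mutant libraries in the left panel and the lowest in the right.

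The leading lower member was LL0000020031, 1683 bases long and at rank 5 of all genes by mean CPM. In wild-type replicates 1 to 4 it stood at 10983, 11609, 13052 and 15424 CPM. In mutant replicates 1 to 6 it stood at 3446, 2942, 3556, 3784, 3329 and 3170 CPM. The lowest wild-type library was thus 2.90 times the highest mutant library, the widest separation of any member. The means were 12767 ± 1972 CPM (SD, n = 4) and 3371 ± 295 CPM (SD, n = 6), a 3.79-fold lower level in the mutants, with an edgeR log2 change of -1.93 (SE 0.10). Per length it was at rank 3 of all genes, with means of 17761 ± 2113 TPM (SD, n = 4) over the wild-type and 4655 ± 442 TPM (SD, n = 6) over the mutant libraries. TPM divides each count by gene length before the same scaling as CPM. The mutant libraries lay close together, and mutant replicates 5 and 6 lay inside the range of replicates 1 to 4. Leaving out any 1 library gave a difference of 3.52-fold to 3.96-fold.

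The next lower members by the size of the difference were a pair with consecutive identifiers, at abundance ranks 55 and 211 and with lengths of 1569 and 1978 bases. The first was at 1663, 1907, 1634 and 1820 CPM in wild-type replicates 1 to 4 and at 1346, 1442, 1364, 1393, 1124 and 1268 CPM in mutant replicates 1 to 6. Its mean was 1.33-fold lower in the mutants, and mutant replicates 5 and 6 were its lowest libraries. The second was at 674, 820, 706 and 708 CPM in wild type and at 468, 504, 502, 532, 437 and 634 CPM in the mutants, a 1.42-fold lower mean. Its mutant replicate 6 came within 1.06-fold of the lowest wild-type library. The level of the second divided by that of the first was 0.389 to 0.432 in wild-type libraries and 0.348 to 0.4998 in mutant libraries, so the ratio ranges of the genotypes overlapped. How reads shared between similar genes were counted is not given in the sources used here, and whether these neighbours share reads was not tested.

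LL0000024142, 16742 bases long, had the next largest fold among the lower members. It was at 235, 257, 196 and 177 CPM in wild-type replicates 1 to 4 and at 164, 175, 161, 155, 68.4 and 60.5 CPM in mutant replicates 1 to 6. The mean was 1.65-fold lower, but the highest mutant library was within 1.01-fold of the lowest wild-type library. Mutant replicates 5 and 6 lay far below the other mutant libraries, and with these 2 libraries left out the mean was 1.32-fold lower. Its edgeR log2 change was -0.72 (SE 0.32), and -0.40 with only replicates 1 to 4 of both groups. It was not called by edgeR with all libraries. It was called with only replicates 1 to 4 of both groups, with and without the replicate block, and with wild-type replicate 4 and mutant replicates 5 and 6 left out. The last of these settings was chosen after seeing the data. The rule chose this gene on the same libraries, so its calls are not independent of the rule.

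The lower member that followed by fold, at abundance rank 668 and 9973 bases long, was at 287, 259, 246 and 269 CPM in wild type and at 177, 168, 245, 178, 155 and 133 CPM in the mutants. It was 1.51-fold lower, and mutant replicate 3 nearly reached the lowest wild-type library. A short lower member, 434 bases long at rank 1087, had the tightest wild-type values of all members. It was at 178 to 181 CPM in wild type, and at 91.1 to 147 CPM in the mutants. The mutant libraries were spread over a range far wider than that of the wild type and 1.49-fold lower in the mean. Another short member, 519 bases long at rank 635, was at 241 to 300 CPM in wild type and 157 to 217 CPM in the mutants, a 1.404-fold lower mean.

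The remaining lower members among the 10 with the largest differences ranked 309, 322 and 383 by abundance, with lengths of 6206, 4517 and 2804 bases. At rank 383 the wild-type libraries were even, at 391 to 420 CPM, and the mutant libraries ranged more widely, from 264 to 348 CPM. At rank 322 the gene was at 410 to 557 CPM in wild type and 304 to 398 CPM in the mutants. Its ranges were separated by only 1.03-fold. Rank 309 was held by a gene at 479 to 544 CPM in wild type, at 412 to 448 CPM in mutant replicates 1 to 4, and at 240 and 223 CPM in mutant replicates 5 and 6. The other 7 lower members had mean levels of 105 to 148 CPM and differences of 1.32-fold to 1.38-fold. Among them the gene at rank 1066, 5031 bases long, showed a like split, with 155 to 190 CPM in wild type, 132 to 147 CPM in mutant replicates 1 to 4 and 101 CPM in both others.

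Among the higher members, LL0000005709 was the most abundant, at rank 30 and 3519 bases long. It was at 1974, 1885, 1972 and 2077 CPM in wild-type replicates 1 to 4 and at 2617, 2480, 2592, 2408, 2669 and 2746 CPM in mutant replicates 1 to 6. The means were 1977 ± 78.4 CPM (SD, n = 4) and 2585 ± 124 CPM (SD, n = 6). Both genotypes were even, with a 1.31-fold higher mean and a gap of 1.16-fold between the nearest libraries. Its edgeR log2 change was 0.38 (SE 0.06). Without mutant replicates 5 and 6 the mean difference was 1.28-fold, under the limit of the rule.

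LL0000032438, at rank 735 and 3649 bases long, had the largest fold of the higher members. Its wild-type replicates 1 to 4 were at 78.0, 27.6, 167 and 80.7 CPM and its mutant replicates 1 to 6 at 341, 244, 263, 273, 315 and 195 CPM. The mean was 3.08-fold higher, with an edgeR log2 change of 1.62 (SE 0.42). Its edgeR adjusted p with all libraries was 0.040, near the limit of 0.05. The call was lost in 11 of 17 alternative analyses, most of which used fewer libraries. The rule chose this gene on the same contrast, so its calls are not independent of the rule. Its wild-type libraries were uneven, with replicate 2 low, replicate 3 high and a coefficient of variation (SD over mean) of 65.5%, the largest of any member in wild type. Leaving out any 1 library gave 2.50-fold to 4.38-fold, the highest without wild-type replicate 3.

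The higher members at ranks 567, 347 and 589 combined a large fold with uneven libraries. Rank 567, a gene of 9259 bases, was at 102 to 138 CPM in wild type, at 456, 395 and 494 CPM in mutant replicates 1, 5 and 6, and at 205, 173 and 221 CPM in mutant replicates 2, 3 and 4. Its mean was 2.65-fold higher, and its mutant coefficient of variation of 43.4% was the largest of any member. At rank 347, a gene of 1932 bases was at 380 CPM in wild-type replicate 1 and at 182 to 223 CPM in the other wild-type libraries. All its mutant libraries lay between 407 and 526 CPM, a 1.81-fold higher mean. The gene at rank 589, 1713 bases long, was at 115 to 183 CPM in wild type and 234 to 362 CPM in the mutants. This 1.91-fold difference had the widest gap between nearest libraries among the higher members, at 1.28-fold.

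The other higher members with large differences were more even. The gene at rank 84, 5171 bases long, was at 929 to 1086 CPM in wild type and 1189 to 1460 CPM in the mutants, a 1.32-fold higher mean. A gene at rank 253, 835 bases long, was at 370 to 438 CPM in wild type and 521 to 626 CPM in the mutants, a 1.44-fold higher mean. Another, at rank 209 and 9257 bases long, was at 421 to 556 CPM in wild type and 603 to 767 CPM in the mutants, a 1.34-fold higher mean. At rank 391, a gene of 5330 bases was at 266 to 318 CPM in wild type and 340 to 397 CPM in the mutants, a 1.32-fold higher mean. These ranges stood apart by 1.07-fold to 1.19-fold at their nearest libraries.

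The shortest member, 299 bases long at rank 250, was also the higher member with the highest level per length. It was at 365 to 367 CPM in wild-type replicates 1 to 3, at 478 CPM in wild-type replicate 4 and at 500 to 693 CPM in the mutants. This was 3085 TPM in wild type and 4603 TPM in the mutants, and the nearest libraries were 1.05-fold apart. The steadiest member in the mutants, 2683 bases long at rank 1094, was at 114 to 123 CPM in wild type and 156 to 169 CPM in the mutants. Its coefficients of variation were 3.12% and 2.80%, and its mean was 1.36-fold higher.

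**Figure D3:**
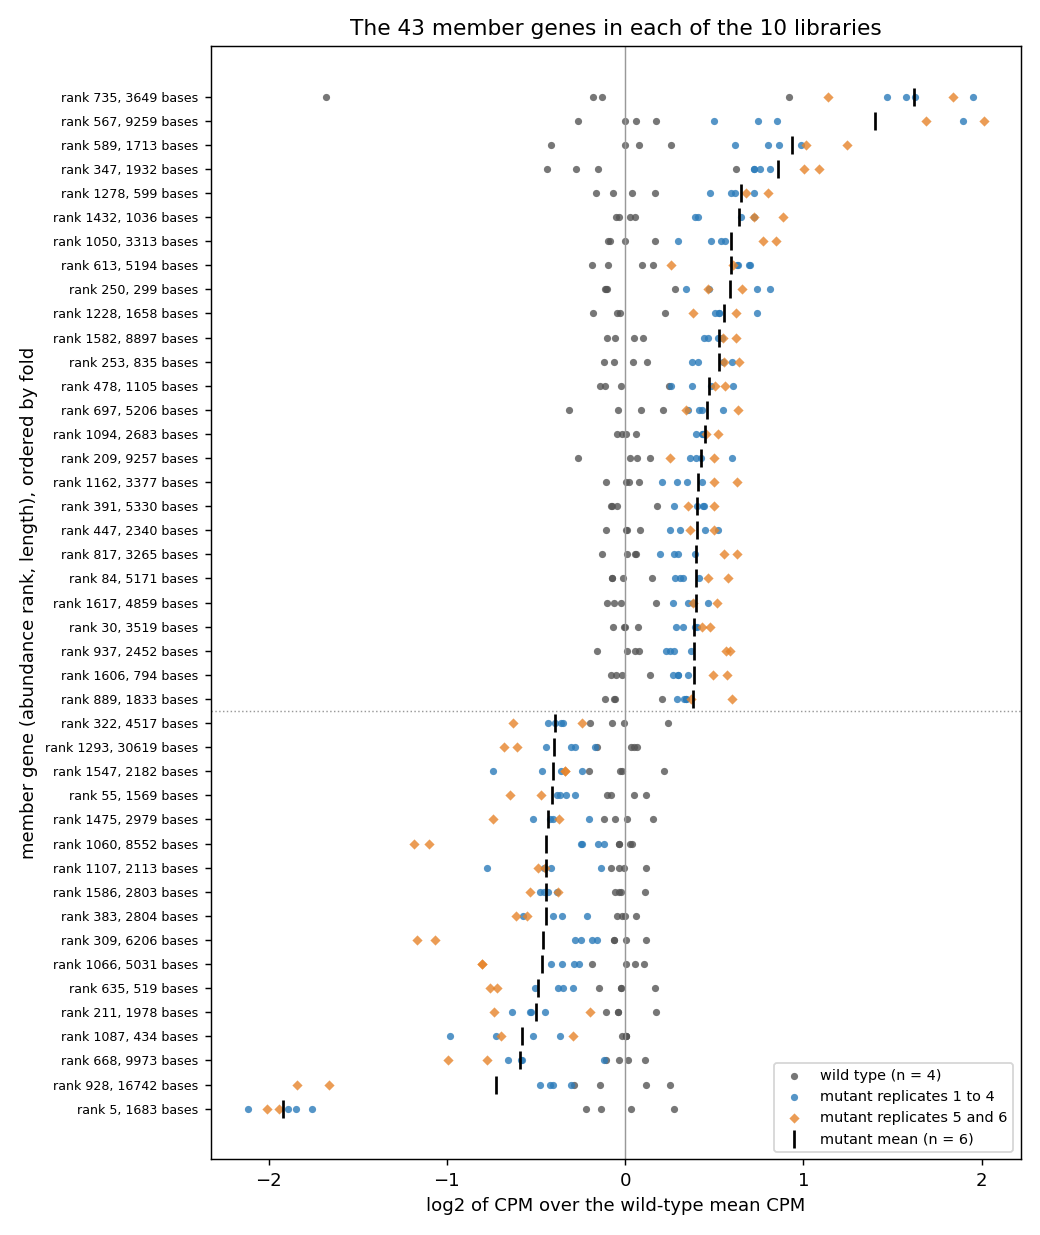
The 43 members (rows, by abundance rank and length) in the 10 libraries, as the log2 of CPM over the wild-type mean of the gene (x). Grey points are wild-type libraries, blue points mutant replicates 1 to 4, orange diamonds mutant replicates 5 and 6, and black ticks the mutant mean. The rank 5 gene at the bottom stands alone at -1.92, and the orange diamonds lie left of the blue points in most long lower members.

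The separation between genotypes was narrow in most members. The gap between the nearest libraries of the genotypes had a median of 1.099-fold in the higher and 1.06-fold in the lower members. In 24 of 43 members it was under 1.1-fold, and in 1 it was over 1.3-fold. The wild-type library nearest the mutants was replicate 4 in 12 of 26 higher members and replicate 3 in 7 of 17 lower members. Wild-type replicate 4 was also the highest wild-type library in 36.0% of the other abundant genes. The mutant library nearest the wild type was replicate 2 in 9 of 26 higher and 7 of 17 lower members. For wild-type replicate 3 and mutant replicate 2, the share over the other abundant genes was not counted. With any 1 library left out, 25 of the 43 members met the rule every time, 15 of them higher and 10 lower. Leaving out a library cannot make the genotypes overlap or reverse a member, so only the limits of 1.3-fold and 100 CPM could fail. These limits read the same values that chose the members.

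Spread within a genotype differed between the directions. Higher members had a median coefficient of variation of 8.84% among wild-type and 8.59% among mutant libraries. In the lower members the medians were 7.40% and 13.4%. The mutant median was 24.9% in the 6 lower members of 5000 bases or more and 11.4% in the 11 shorter ones. In 13 of 17 lower and 10 of 26 higher members the spread was larger in the mutants than in wild type. How many other abundant genes did so was not counted. The rule allowed no overlap of the genotypes, which limits the spread of these same values, so the spreads of members are not independent of the rule. The other abundant genes had medians of 6.53% and 7.63%, and all genes tested 10.99% and 13.7%.

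In members, as in the other abundant genes, mutant replicates 5 and 6 often stood together at one end of the mutant libraries. Members differed from these genes in which end it was. Both of these libraries lay below all of mutant replicates 1 to 4 in 8 of 17 lower members and in 1 of 26 higher members, against 28.7% of the other abundant genes. Both lay above them in 0 of 17 lower members and in 13 of 26 higher members, against 25.02% of the other abundant genes. These 2 libraries entered the mutant means of the rule, so a gene they moved away from wild type was more likely to become a member. Without them, 18 of the 26 higher members and 12 of the 17 lower members still differed by 1.3-fold. As a sum, the 16 lower members other than the leading one took 0.357% and 0.394% of all counts in these libraries and 0.431% to 0.459% in mutant replicates 1 to 4. The higher members took 1.08% and 1.12% in these libraries and 0.972% to 1.06% in the others.

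This split went with gene length among the lower members. In the 6 lower members of 5000 bases or more, both libraries lay below the other mutant libraries every time, against 50.8% of the other abundant genes of that length. Their log2 difference, replicates 5 and 6 minus replicates 1 to 4, had a median of -0.68, against -0.18 in the other abundant genes of that length. Without these libraries their median difference between genotypes went from 1.38-fold to 1.24-fold, and 2 of the 6 still reached 1.3-fold. In the 11 shorter lower members the median log2 difference was -0.05, and 10 of 11 still reached 1.3-fold without these libraries. The log2 difference was largest, at -1.34, in LL0000024142, described above. The gene at rank 1060, 8552 bases long, had a difference of -0.95, at 171 to 180 CPM in wild type, 147 to 161 CPM in mutant replicates 1 to 4, and 81.7 and 77.3 CPM in mutant replicates 5 and 6. The longest member, 30619 bases at rank 1293, was at 131 to 153 CPM in wild type, 107 to 130 CPM in mutant replicates 1 to 4, and 96.1 and 91.4 CPM in the others. The trend of level with length in mutant replicates 5 and 6, given above for the abundant genes, moves with these values, and its part in them was not tested.

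**Figure D4:**
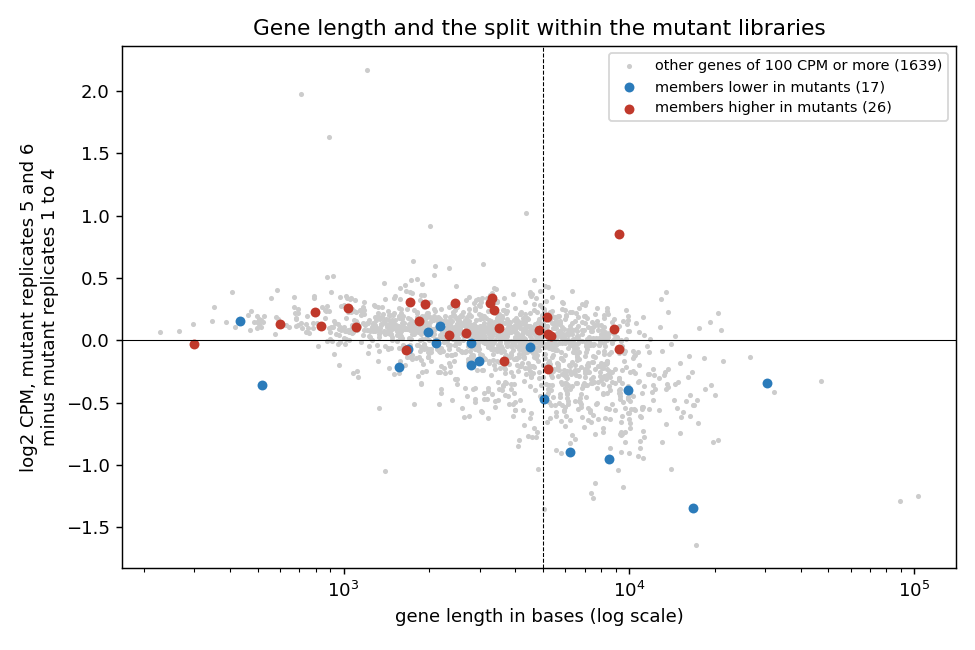
Gene length (x, log scale) against the log2 difference in CPM between mutant replicates 5 and 6 and mutant replicates 1 to 4 (y), for the 26 higher members (red), the 17 lower members (blue) and the other 1639 abundant genes (grey). The dashed line marks 5000 bases. All 6 lower members to its right lie below 0, between -1.34 and -0.34.

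In length itself the directions were similar. Higher members had a median length of 2974 bases (299 to 9259) and lower members of 2804 bases (434 to 30619). Both medians were below the 3690 bases of the other abundant genes and the 3180 bases of all genes tested. Genes under 1000 bases made up 4 of 26 higher and 2 of 17 lower members, against 5.25% of the other abundant genes. Per length, the median member stood at 170 TPM in the higher and 157 TPM in the lower set, and the other abundant genes at 124 TPM. The members ranged from rank 3 to rank 9789 among all genes on this scale, since CPM favours long genes.

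In all, 8 pairs of members had identifiers at most 20 apart, and they involved 16 members. In 5 of these pairs both genes differed in the same direction. How often other abundant genes have such neighbours was not counted, so these pairs are not given as a trait of the members. Beside the consecutive pair described above, lower genes at ranks 1060 and 1547 were 2 identifiers apart, and lower genes at ranks 322 and 309 were 3 apart. The ratio within these pairs was not constant over libraries. At ranks 1060 and 1547 the ratio of the first gene to the second was 1.504 to 2.10 in mutant replicates 1 to 4 and 0.821 and 0.777 in mutant replicates 5 and 6. Another 2 pairs, of higher genes, lay 11 and 12 identifiers apart, at ranks 253 and 589 and at ranks 1050 and 1162. Whether identifiers follow the order of genes on the chromosomes is not given in the sources used here.

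The same contrast fitted over all 24608 genes with edgeR's quasi-likelihood test called 9.75% of the 1682 abundant genes at a Benjamini-Hochberg adjusted p under 0.05, of which 119 (7.07%) were higher and 45 (2.68%) lower in the mutants. It called 11.7% of all genes tested. All 26 higher and 14 of 17 lower members were among the calls, a count that shares its contrast with the rule. The 3 members not called were the lower genes at ranks 309, 928 and 1060, which were 6206, 16742 and 8552 bases long and had the 3 largest coefficients of variation of the lower members in the mutants, 28.5%, 39.6% and 30.1%. The calls among abundant genes changed when 1 library was left out, which also leaves fewer libraries to test with. The higher ones numbered 60, 64 and 67 when wild-type replicate 1, 2 or 3 was left out, and 77 when mutant replicate 3 was. Without wild-type replicate 4 they numbered 141. The lower ones numbered 26 and 29 when wild-type replicate 2 or 3 was left out, and 29 when mutant replicate 1 was. Without mutant replicate 5 they numbered 56.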

How the data were processed

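A single table of raw counts was deposited for 10 RNA sequencing libraries, with a length in bases for each of 36351 identifiers. Its column names, per the file headers, refer to Subread alignments. The submitters' processing notes name cutadapt, DESeq2, GRCz11 and danRer11, with no role. Annotation, counter and strand setting were not given in the sources used here. Overlapping or similar genes may share or lose counts. The wild-type columns carry a prefix, new, that the labels do not explain. No column was left unused (0), and 0 identifiers matched the gene name tables.

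CPM used column sums over the table, and TPM the deposited lengths. In R 4.3.3, edgeR 4.0.16 (filterByExpr, TMM, glmQLFit robust, glmQLFTest) tested 24608 genes. The fit was also run on simulated counts with the real library sizes but no trend of level with gene length. No result here rests on that run. The standard error is the log2 change over the square root of F. Differences within a genotype used log2(CPM + 0.5). DESeq2 1.42.0, other scalings, filters, limits and left-out libraries were alternatives.

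The members, comparison genes and thresholds were chosen with earlier results of these data known. Members are given by identifier: 2 per direction, the most abundant and the one with the largest fold (or the next). The others are described by abundance rank. The 10 largest differences per direction and the genes nearest the fold limit were described, and members with extreme length, spread or library values were chosen after their values were seen.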

Additional observations from a re-analysis of the deposited data

Results flagged for a closer look

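The values of the 43 members and 3 sums were searched within each genotype for a library far from the others, in 92 sets of values. In independent sets of values not chosen by a rule, chance flags about 1 set in 20, which would be 4.6 here, and 7 were flagged. These sets share their libraries and were chosen by the rule, so the 4.6 is only a rough guide. Wild-type replicate 4 was at 478 CPM for the 299-base gene at rank 250, where the other wild-type libraries were at 365 to 367 CPM. It was at 131 CPM for the 30619-base gene at rank 1293, where the others were at 149 to 153 CPM. Wild-type replicate 2 was at 318 CPM for the gene at rank 391, above 266 to 272 CPM in the others. The same library was at 178.0 CPM for the 434-base gene at rank 1087, below 180.7 to 181.0 CPM, a small distance in a very tight set. Wild-type replicate 1 was at 166 CPM and mutant replicate 5 at 219 CPM for the gene at rank 889, above 134 to 139 CPM and 176 to 186 CPM in the other libraries of their genotypes. Mutant replicate 5 was at 209 CPM for the gene at rank 613, below 267 to 284 CPM.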

How the results depend on the processing

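The rule gave 26 higher and 17 lower genes, with 0.312% and -1.098% of all counts moved. A minimum of 50 CPM gave 56 and 35 genes (0.390% in the higher), 200 CPM gave 13 and 8 (0.242%), 1.2-fold gave 62 and 29 (5.41% of abundant genes; 0.558%), and 1.5-fold gave 9 and 3 (0.713%; 0.117% and -0.957%). With overlap allowed it gave 43 and 37 (4.76%; 0.508% and -1.41%). With the rule applied anew, the higher genes moved 0.204% with TMM and 0.244% with RLE scaling. Applied to TPM, with a mean of 100 TPM or more, the rule gave 23 higher and 13 lower genes. Of these, 15 and 10 were members, and the sums on that scale were 0.383% and -1.53%. Under the main rule, the sum of the lower members without the leading gene was -0.159%. Leaving out each library gave 22 to 30 higher and 14 to 34 lower genes, 2.25% to 3.72% of abundant genes, and sums of 0.237% to 0.404% and -1.23% to -1.02%. Without wild-type replicate 4 and mutant replicates 5 and 6 together, a choice made after seeing the data, 35 and 30 genes met the rule, the higher sum was 0.434%, and edgeR called 231 higher and 115 lower abundant genes. The cause of these changes was not tested, beyond those that the limits produce by construction.

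Leaving out each library, edgeR called 60 to 141 higher and 26 to 56 lower abundant genes, against 119 and 45. DESeq2 called 171 higher and 84 lower ones. Same-numbered libraries did not deviate together (correlations of 0.09, 0.08, -0.02 and -0.07), so the numbers were not taken as pairs. With the replicate block over replicates 1 to 4, 119 higher and 56 lower abundant genes were called. Without the block, 147 higher and 78 lower ones were called. Over 17 alternatives the log2 change of LL0000020031 ran from -2.0 to -1.78, of LL0000005709 from 0.36 to 0.41, of LL0000024142 from -0.82 to -0.38 and of LL0000032438 from 1.32 to 2.12. None changed sign. LL0000032438 lost its edgeR call in 11 of the 17, most of which used fewer libraries, and LL0000024142 gained one in 3. Comparing lengths with all genes tested in place of the other abundant genes kept both medians of the members lower. Depth differed between the genotypes, and its part in these results was not tested.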
